A study of Mus musculus with 12 samples.

Results

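Creatine kinases, adenylate kinases and AMP deaminases are the enzymes that buffer ATP in muscle when its use and its synthesis fall out of step. The 9 genes described here, Ckm, Ckb, Ckmt2, Ak1, Ak3, Ak4, Ampd1, Ampd2 and Ampd3, were taken by their symbols as members of these 3 families. All 9 were found among the 15113 genes of the count table, and all 9 passed the filter on low counts that left 12730 genes to be tested.

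Creatine kinases move phosphate between ATP and creatine, so that phosphocreatine serves as a store of high-energy phosphate. Adenylate kinases turn a pair of ADP molecules into ATP and AMP, and AMP deaminases convert AMP to IMP and ammonia, which removes AMP and is the entry to the purine nucleotide cycle. AMP is also the nucleotide that activates AMPK, the energy sensor of the cell.

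The cells were C2C12, mouse myoblasts of an established line, which fuse to form myotubes once growth serum is replaced by horse serum. Differentiated cultures were exposed for 16 h to 20 μM BAM15 or to its DMSO vehicle, with 6 libraries per condition. BAM15 is a mitochondrial protonophore that lets protons re-enter the matrix without ATP synthesis. C2C12 is a single cell line in culture, and nothing in the labels says whether the 6 libraries came from separate cultures, so the p-values measure the spread between these libraries only. Libraries were made by QuantSeq, which reads the 3′ end of each transcript, so a count does not scale with transcript length and levels of different genes can be set side by side as tags per gene.

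Total counts ranged from 13983725 to 18751780 in the BAM15 libraries and from 15299135 to 18866728 in the vehicle libraries. All 26 myotube markers were tested, and their summed level was 39079 to 46967 CPM (counts scaled to library size) with BAM15 and 43635 to 49673 with vehicle. At an adjusted p below 0.01, 4 of these markers fell and 2 rose, where 20.3% of all tested genes fell and 22.0% rose, and the largest changes among those called were those of Casq1 (log2 fold change -0.92), Acta1 (0.46), Myog (0.37) and Casq2 (-0.35). The 14 markers of undifferentiated or dividing myoblasts summed to 201 to 322 CPM with BAM15 and 667 to 718 with vehicle. Of these, 12 fell, Pclaf (-3.44), Tk1 (-3.31), Msc (-2.65) and Birc5 (-2.31) by the most, and 1 rose, Myf5 (1.69). Their part in the results for the 9 genes was not tested, and in such bulk RNA fewer cells of a type and less RNA per cell cannot be told apart.

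In both conditions the libraries carry the numbers 1 to 6. BAM15 libraries 4 to 6 stood apart from BAM15 libraries 1 to 3 in several of the 9 genes, Ckb and Ampd2 among them. In the vehicle libraries the mean of Ckb was 4765 normalised counts in libraries 1 to 3 and 4775 in 4 to 6, and that of Ampd2 was 117 and 160. The labels give no batch for these numbers, so values are given for both sets of numbers where they differ.

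Ak4 and Ampd3 had the largest fall and the largest rise among the 9 genes, and a stretch of their promoters is shown here because both hold the letters CACGTG in 1 of their annotated start windows. Capitals mark those letters. The windows run from 250 bases before to 50 bases after an annotated start, from RefSeq on GRCm38.p6, at chr4:101419453-101419752 (plus strand) for Ak4 and at chr7:110772354-110772653 (plus strand) for Ampd3.
Ak4: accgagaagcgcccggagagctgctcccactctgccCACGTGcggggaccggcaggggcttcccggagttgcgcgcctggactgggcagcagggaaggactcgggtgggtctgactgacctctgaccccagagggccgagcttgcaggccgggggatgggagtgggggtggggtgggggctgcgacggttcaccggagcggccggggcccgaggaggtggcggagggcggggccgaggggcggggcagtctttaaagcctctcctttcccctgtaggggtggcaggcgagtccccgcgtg
Ampd3: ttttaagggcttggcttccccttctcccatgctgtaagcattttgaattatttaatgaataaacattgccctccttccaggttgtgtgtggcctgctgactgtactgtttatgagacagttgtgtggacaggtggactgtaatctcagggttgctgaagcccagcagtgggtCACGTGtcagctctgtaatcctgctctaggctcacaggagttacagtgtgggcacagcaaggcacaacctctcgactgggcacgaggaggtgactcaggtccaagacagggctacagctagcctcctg
The match begins 214 bases upstream of the start in Ak4 and 78 bases upstream in Ampd3. The other 3 windows of Ak4 and the other 2 of Ampd3 do not hold it, and 3′ reads do not tell which start was used. CACGTG was picked after matches to the shorter ACGTG had been seen, and it reads the same on both strands and contains ACGTG. It stands in 7.15% of the 32817 promoter windows of this length, and ACGTG, on either strand, in 19.62%. These shares are per window and not per gene, and a gene with several windows can hold a match in any of them. Of the 8 genes with a window, the others hold no CACGTG, and Ak1 holds ACGTG in 1 of its 4 windows. TGATGNAA, found on either strand in 3.97% of all windows, was in no window of the 8 genes, TATAAA (13.62%) was in the window of Ckb and in 1 of Ak1, and CANNTG, which includes CACGTG and stands in 72.32% of all windows, occurred 4 times in the window of Ckmt2. A match is a description of letters and not of a bound site.

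Of the 9 genes, 6 fell and 1 rose with BAM15 at an adjusted p below 0.01 (edgeR's quasi-likelihood test, Benjamini-Hochberg adjustment over all tested genes). Over all tested genes 20.3% fell and 22.0% rose by the same rule (2580 and 2799 genes). With scaling by library size only, 3070 genes fell and 2332 rose, the median log2 fold change of all tested genes was -0.04, and 6 of the 9 genes were called, 5 lower and 1 higher. The genes that fell were Ckm, Ckb, Ak1, Ak3, Ak4 and Ampd1, the gene that rose was Ampd3, and Ckmt2 and Ampd2 did not pass. The median log2 fold change of the 9 was -0.22, against 0.02 over all tested genes. With the 3 thresholds of the study together, an adjusted p below 0.01, a base mean above 50 and a change of more than 2-fold, only Ak4 (lower) and Ampd3 (higher) remained, beside 3.58% of all tested genes lower and 3.70% higher. The libraries of the 2 conditions did not overlap for 3 lower genes (Ckm, Ckb, Ak4) and 1 higher gene (Ampd3), beside 17.0% of all tested genes lower and 17.1% higher without overlap.

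**Figure D1:**
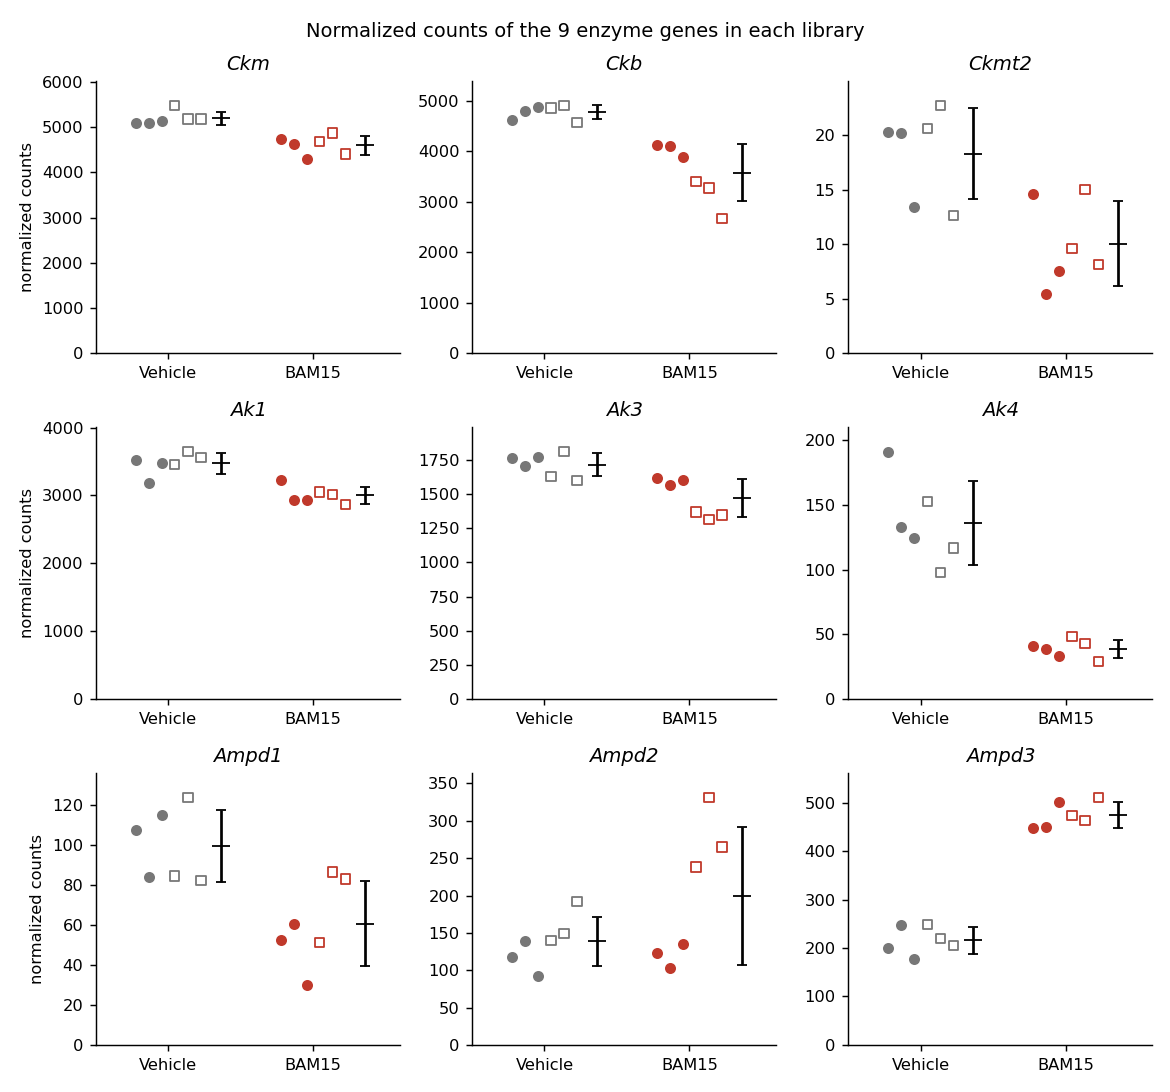
Normalised count of each of the 9 genes in every library, with the condition on the horizontal axis and a vertical axis that starts at 0 in each panel. Filled circles are libraries 1 to 3, open squares libraries 4 to 6, and the dash with its bar is the mean ± SD of 6 libraries. The conditions are apart for Ckm, Ckb, Ak4 and Ampd3, and for Ampd2 the BAM15 libraries 4 to 6 lie above libraries 1 to 3.

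The creatine kinases were the most abundant of the 3 families. Both cytosolic forms fell with BAM15, by little, and the sum of the family went from 9980 ± 228 normalised counts (SD, n = 6) with vehicle to 8185 ± 629 with BAM15. A normalised count is a library's count scaled to the mean library size after TMM normalisation.

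Ckm, the muscle form of cytosolic creatine kinase, lies on chromosome 7 at 19404776 to 19422841 (GRCm38, plus strand). Its lowest, median and highest normalised counts were 5082, 5160 and 5470 with vehicle and 4300, 4653 and 4871 with BAM15. Every BAM15 library was below every vehicle library. The mean fell by 11.4%, a log2 fold change of -0.17 (SE 0.05, adjusted p = 0.00540), and 69.9% of the tested genes changed by more. The call did not hold without BAM15 library 3 or 6 or vehicle library 4 or 6 (adjusted p from 0.0106 to 0.0162). It was also lost in libraries 1 to 3 alone (0.0146), in 4 to 6 alone (0.0523) and with the library number as a block in the fit (0.0145). Over all 19 alternatives its adjusted p ran from 2.37e-04 to 0.0523.

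Ckb, the brain form of the cytosolic enzyme, is on chromosome 12 at 111669361 to 111672338 (minus strand). In the vehicle libraries its normalised count was nearly level, with 4570 as the lowest, 4825 as the median and 4899 as the highest. With BAM15 the values for libraries 1 to 6 were 4115, 4105, 3880, 3396, 3273 and 2672. All 6 lay below the vehicle libraries, and libraries 4 to 6 were the lowest. The mean went from 4770 ± 138 to 3574 ± 567 (SD, n = 6), a log2 fold change of -0.42 (SE 0.09, adjusted p = 0.00114). Of the tested genes 40.1% changed by more. Within libraries 1 to 3 the log2 fold change was -0.24 (adjusted p = 9.12e-04) and within 4 to 6 it was -0.63 (adjusted p = 1.10e-04), and the gene passed under all 19 alternatives, with an adjusted p of at most 0.00354. The last 400 bases of its longest transcript annotated as principal share 55 of 351 windows of 50 bases (15.67%) with the pseudogenes Ckb-ps1 and Gm12892. Some of its 3′ reads could therefore have been split or lost in counting. No such window was shared for the longest principal transcript of any of the other 8 genes. The ends of other annotated transcripts were not examined.

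Ckmt2, the sarcomeric creatine kinase of the mitochondrial intermembrane space, is on chromosome 13 at 91853387 to 91876885 (minus strand) and was close to the limit of detection, with 14 to 23 counts per vehicle library and 5 to 16 per BAM15 library. Its lowest, median and highest normalised counts were 12.7, 20.2 and 22.7 with vehicle and 5.40, 8.89 and 15.0 with BAM15. The groups overlapped, although all 6 BAM15 libraries were below the vehicle mean. The log2 fold change of -0.83 (SE 0.27) did not pass (adjusted p = 0.0155). It passed without BAM15 library 1 (0.00994) or BAM15 library 5 (0.00750), and its adjusted p over the 18 alternatives with a value ran from 0.00750 to 0.141.

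All 3 adenylate kinases fell, Ak4 far more than Ak1 and Ak3. Their sum went from 5326 ± 187 normalised counts with vehicle to 4514 ± 216 with BAM15 (SD, n = 6).

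Ak4 codes for an adenylate kinase of the mitochondrial matrix and lies on chromosome 4 at 101419277 to 101466995 (plus strand). Its normalised counts in vehicle libraries 1 to 6 were 191, 133, 124, 153, 97.9 and 117. In BAM15 libraries 1 to 6 they were 40.8, 38.9, 32.9, 48.1, 43.2 and 29.2. The highest BAM15 library stood below the lowest vehicle library, and the BAM15 libraries 4 to 6 did not stand apart from 1 to 3. The mean went from 136 ± 32.5 to 38.8 ± 6.87, so that it fell by 71.4%, a log2 fold change of -1.80 (SE 0.17, adjusted p = 3.83e-07). Only 3.47% of the tested genes changed by more. Over 19 alternatives the log2 fold change stayed between -2.002 and -1.604 and the adjusted p was at most 8.08e-05.

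Ak1, the cytosolic adenylate kinase that is most abundant in muscle, is on chromosome 2 at 32621758 to 32635058 (plus strand). The lowest, median and highest normalised counts were 3188, 3499 and 3647 with vehicle and 2871, 2976 and 3227 with BAM15, so the 2 groups just overlapped. Its log2 fold change was -0.21 (SE 0.05, adjusted p = 0.00206), from a mean of 3476 ± 156 to 3005 ± 126. In libraries 1 to 3 alone the adjusted p was 0.0263, in 4 to 6 alone 0.0102, and over the 19 alternatives it ran from 6.00e-05 to 0.0263.

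Ak3, the matrix enzyme that uses GTP to phosphorylate AMP, is on chromosome 19 at 29020833 to 29047961 (minus strand). With vehicle its normalised count ran from 1599 through a median of 1736 to 1811, and with BAM15 from 1316 through 1468 to 1619, with a narrow overlap. The log2 fold change of -0.22 (SE 0.07) passed by a small margin (adjusted p = 0.00978). The BAM15 libraries 4 to 6 (mean 1344) were lower than 1 to 3 (mean 1595), and within the numbers 1 to 3 the log2 fold change was -0.14 (adjusted p = 0.0527) against -0.33 within 4 to 6 (adjusted p = 0.00484). The call was lost in 8 of 12 fits that left out 1 library (BAM15 library 4, 5 or 6, or vehicle library 1, 2, 3, 4 or 5), with adjusted p up to 0.0254, and over all 19 alternatives it ran from 3.68e-04 to 0.0527.

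The AMP deaminases were the least abundant family and the only 1 of the 3 with members called in both directions. Their sum went from 454 ± 40.9 normalised counts with vehicle to 734 ± 118 with BAM15 (SD, n = 6), and most of the added counts were those of Ampd3.

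Ampd3, the form first known from erythrocytes, is on chromosome 7 at 110768206 to 110812405 (plus strand). Vehicle libraries 1 to 6 held 200, 248, 178, 248, 220 and 206 normalised counts, and BAM15 libraries 1 to 6 held 448, 451, 501, 473, 463 and 511. The lowest BAM15 library was well above the highest vehicle library. The mean went from 217 ± 27.8 to 474 ± 26.5, a 2.19-fold rise and a log2 fold change of 1.13 (SE 0.09, adjusted p = 3.25e-08). Of the tested genes 9.62% changed by more. Under the 19 alternatives the log2 fold change was 1.07 to 1.17 and the adjusted p at most 4.16e-06.

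Ampd1, the muscle form, is on chromosome 3 at 103074014 to 103099720 (plus strand). Its normalised counts in BAM15 libraries 1 to 6 were 52.4, 60.5, 30.1, 51.3, 86.4 and 82.9, and the vehicle libraries ran from 82.3 through a median of 95.9 to 124. BAM15 libraries 5 and 6 reached the range of the vehicle libraries and the other 4 did not. The mean went from 99.4 ± 18.1 to 60.6 ± 21.2, a log2 fold change of -0.72 (SE 0.21) with an adjusted p of 0.00993, just inside the threshold. Leaving out any vehicle library or any of BAM15 libraries 1 to 4 put it outside (adjusted p up to 0.0254). Within the numbers 1 to 3 the log2 fold change was -1.12 (adjusted p = 2.65e-04) and within 4 to 6 it was -0.40 (adjusted p = 0.176), which are the lowest and the highest p over its 19 alternatives.

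Ampd2, the form known from liver and other non-muscle tissues, is on chromosome 3 at 108074062 to 108086651 (minus strand). BAM15 libraries 1 to 6 held 123, 103, 135, 238, 331 and 265 normalised counts, while vehicle libraries 1 to 6 held 118, 139, 92.7, 140, 149 and 192. BAM15 libraries 1 to 3 were inside the range of the vehicle libraries and 4 to 6 were above it. Vehicle libraries 4 to 6 (mean 160) were also higher than vehicle libraries 1 to 3 (mean 117), by less. The log2 fold change was 0.52 (SE 0.28) and did not pass (adjusted p = 0.135). It was 0.05 within the numbers 1 to 3 (adjusted p = 0.808) and 0.78 within 4 to 6 (adjusted p = 0.00133), the limits over its 19 alternatives.

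**Figure D2:**
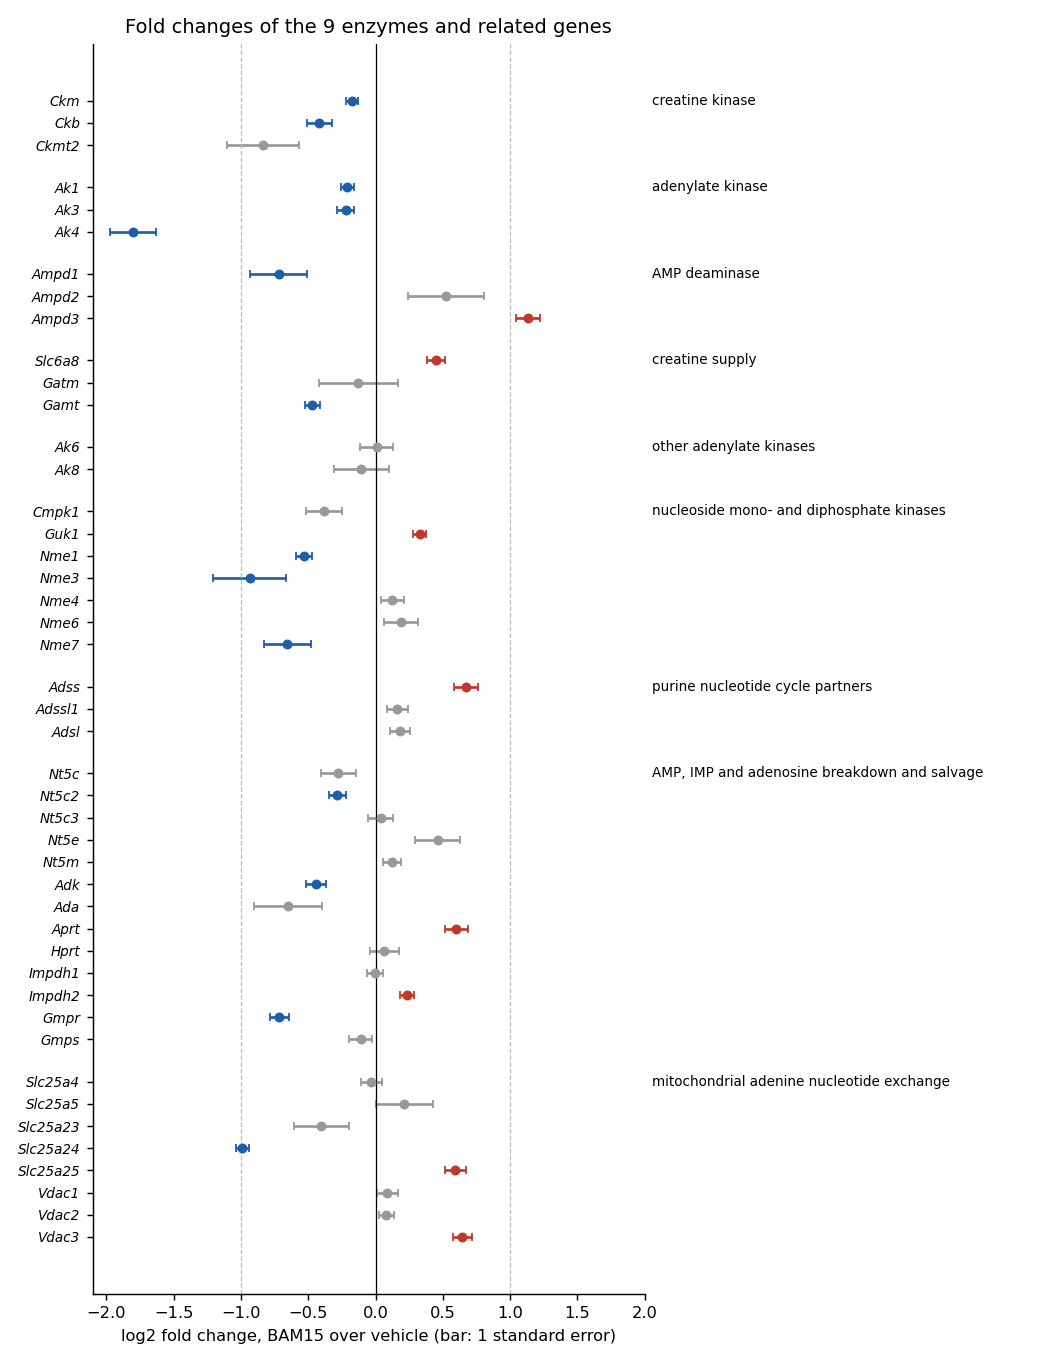
Log2 fold change of BAM15 over vehicle with its standard error (bars) for the 9 genes and for tested genes of related metabolism, 6 libraries per condition. Blue points were called lower, red points called higher and grey points not called at an adjusted p below 0.01, and dashed lines mark a 2-fold change. Ak4 at -1.80 and Ampd3 at 1.13 are the 2 points beyond the dashed lines.

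Whether members of a family changed to different extents was tested on the ratio of their counts within each library, which does not depend on library size. The difference in the log2 ratio between conditions was tested by an exact two-sided permutation test with all 924 arrangements of the condition labels, whose smallest possible p is 0.00216, with Benjamini-Hochberg adjustment over the 9 pairs. Ak1 rose relative to Ak4 by 1.57 on the log2 scale (SE 0.17, adjusted exact p = 0.00649), and Ak3 relative to Ak4 by 1.55 (SE 0.19, adjusted exact p = 0.00649), in both cases with no overlap between the conditions. Ak1 and Ak3 differed in their change by 0.02 (SE 0.07, adjusted exact p = 0.801), and the sign of this value turned when BAM15 library 4, BAM15 library 5 or vehicle library 2 was left out. Of the summed counts of Ak1, Ak3 and Ak4, Ak4 made up 2.55% ± 0.603 with vehicle and 0.860% ± 0.150 with BAM15 (SD, n = 6).

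Among the AMP deaminases, the log2 ratio of Ampd1 to Ampd3 was -1.13 ± 0.40 with vehicle and -3.04 ± 0.57 with BAM15 (SD, n = 6), a difference of -1.91 (SE 0.28, adjusted exact p = 0.00649) without overlap. The ratio of Ampd1 to Ampd2 was lower as well, with a difference of -1.20 (SE 0.32, adjusted exact p = 0.00974), with overlap. The ratio of Ampd2 to Ampd3 differed by -0.71 (SE 0.30), which did not pass (adjusted exact p = 0.0640). It passed without BAM15 library 5 (0.00487), and across the 13 alternatives its p ran from 0.00487 to 0.124. Within BAM15 this ratio was -2.13 to -1.86 in libraries 1 to 3 and -0.99 to -0.48 in libraries 4 to 6, against -0.94 to -0.10 over the vehicle libraries. Of the family's counts Ampd1 held 22.2% ± 5.26 with vehicle and 8.16% ± 2.16 with BAM15, Ampd2 30.2% ± 5.27 and 26.1% ± 8.28, and Ampd3 47.6% ± 4.06 and 65.8% ± 9.07 (SD, n = 6).

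Among the creatine kinases, the ratio of Ckm to Ckb was higher with BAM15 by 0.26 on the log2 scale (SE 0.10, adjusted exact p = 0.0234). BAM15 libraries 1 to 3 gave 0.15 to 0.20 and libraries 4 to 6 gave 0.46 to 0.72, and the 6 vehicle libraries gave 0.08 to 0.18, so the 2 conditions overlapped through the lower-numbered libraries. This call was lost when any of vehicle libraries 1 to 5 was left out (adjusted exact p from 0.0552 to 0.0877), and over 13 alternatives its p was 0.00974 to 0.0877. Ckm to Ckmt2 differed by 0.70 (SE 0.25, adjusted exact p = 0.0292), a call lost without BAM15 library 2, 3 or 6 or vehicle library 1, 2, 4 or 5 (up to 0.0701, and 0.0195 to 0.0701 over 13 alternatives). For Ckb to Ckmt2 the difference was 0.45 (SE 0.29) and did not pass (adjusted exact p = 0.170). Without BAM15 library 5 it passed (0.0487), within a range of 0.0487 to 0.341 over 13 alternatives. Ckm made up 52.0% ± 0.832 of the family's counts with vehicle and 56.4% ± 4.06 with BAM15, and Ckmt2 0.183% ± 0.0409 and 0.123% ± 0.0453 (SD, n = 6).

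**Figure D3:**
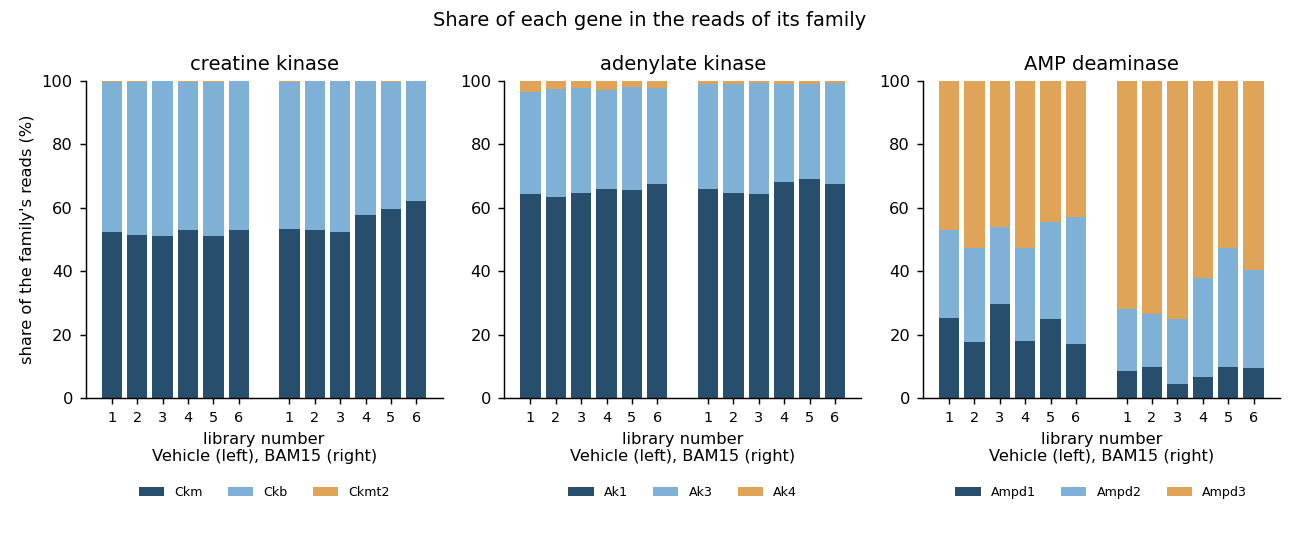
Share of each member in its family's counts, in percent, as stacked bars from 0, with 1 bar per library (vehicle libraries 1 to 6 on the left, BAM15 libraries 1 to 6 on the right of each panel). On average Ampd3 goes from 47.6% to 65.8% of the AMP deaminase counts. Ak4 goes from 2.55% to 0.860% of the counts of Ak1, Ak3 and Ak4, while Ckmt2, at means of 0.183% and 0.123%, is too thin to be seen.

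**Figure D4:**
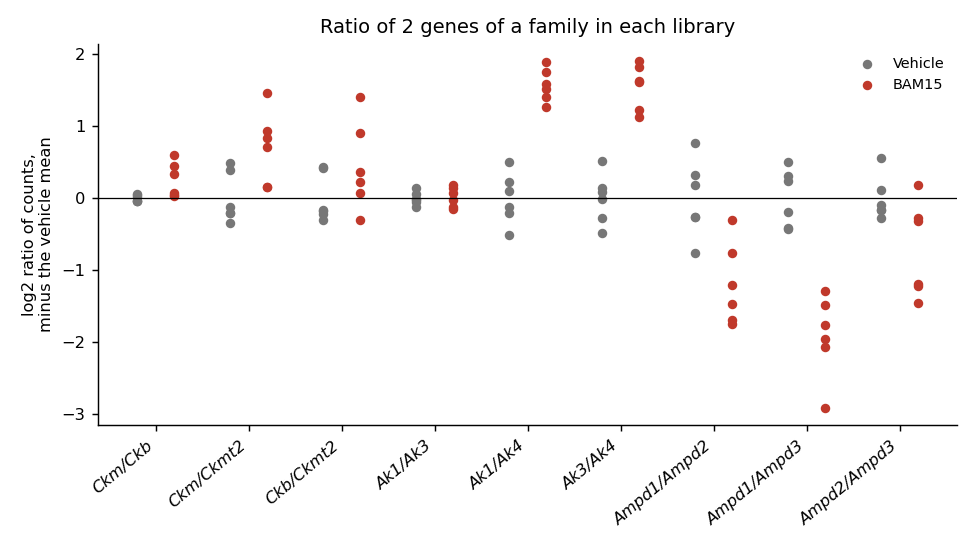
Log2 ratio of the counts of 2 members of a family, minus the mean of that ratio over the vehicle libraries, for the 9 pairs on the horizontal axis. Each point is 1 library (grey vehicle, red BAM15, 6 each), and the line at 0 is the vehicle mean. The conditions are apart for Ak1/Ak4, Ak3/Ak4 and Ampd1/Ampd3, and overlap for the other 6 pairs.

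The genes that supply these enzymes with substrates or use their products were taken from a list of 48, of which 37 were tested. Of the 37, 8 fell and 7 rose at an adjusted p below 0.01 and 22 did not pass, their median log2 fold change was 0.04, and 0 of them passed all 3 thresholds. These counts are near the shares over all tested genes, of which 20.3% fell and 22.0% rose. Without overlap between conditions were 7 lower and 7 higher genes, also near the 17.0% and 17.1% over all tested genes. All values in the next paragraphs are log2 fold changes from the same edgeR fit, with adjusted p.

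Of 3 genes of creatine supply, Slc6a8, the creatine transporter of the plasma membrane, rose by 0.45 (adjusted p = 3.72e-05). Its normalised count was 607 ± 25.5 with vehicle and 830 ± 77.6 with BAM15 (SD, n = 6). Gamt, which makes creatine from guanidinoacetate, fell by 0.47 (adjusted p = 3.14e-06), and Gatm, the enzyme before it, had -0.13 (adjusted p = 0.738). Among other adenylate kinases, Ak6 had 0.01 and Ak8 had -0.11, and neither passed (adjusted p = 0.963 and 0.684).

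In the purine nucleotide cycle, 1 of 3 partner genes of AMP deaminase passed. Adss, an adenylosuccinate synthetase that acts on IMP, rose by 0.67 (adjusted p = 1.04e-05), from 534 to 852 normalised counts on average. The muscle form of the synthetase, Adssl1, had 0.16 (adjusted p = 0.0954), and Adsl, the lyase that returns AMP, had 0.18 (adjusted p = 0.0475). Of 13 tested genes that break down or salvage AMP, IMP and adenosine, 3 fell and 2 rose. Gmpr, which turns GMP into IMP, fell by 0.72 (adjusted p = 6.96e-07), and Adk, which phosphorylates adenosine to AMP, fell by 0.44 (adjusted p = 1.31e-04). Aprt, which makes AMP from adenine, rose by 0.60 (adjusted p = 2.75e-05). Nt5c2, a cytosolic nucleotidase that acts on IMP, fell by 0.28 (adjusted p = 0.00162).

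Of 7 nucleoside mono- and diphosphate kinases, 3 fell and 1 rose. The values were -0.53 for Nme1 (adjusted p = 2.58e-06), -0.65 for Nme7 (adjusted p = 0.00509) and -0.94 for Nme3 (adjusted p = 0.00910), while Guk1, the guanylate kinase, rose by 0.33 (adjusted p = 4.27e-05). Of 8 tested genes that carry adenine nucleotides across the mitochondrial membranes, 1 fell and 2 rose. Slc25a24, an ATP-Mg/phosphate carrier, fell by 0.99 (adjusted p = 1.55e-10), from 2637 to 1328 normalised counts on average, and its relative Slc25a25 rose by 0.59 (adjusted p = 1.48e-05). Vdac3, an outer membrane channel, rose by 0.65 (adjusted p = 1.52e-06). Slc25a4, the main ADP/ATP carrier of muscle, had -0.03 (adjusted p = 0.747).

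For each of the 9 genes, the gene whose level moved most like it from library to library was sought among 10462 genes, as the Pearson correlation of the deviations of log2 CPM from the condition means over the 12 libraries. These are descriptions. The 12 points share libraries and their depth and, as the highest of many, such values are large by selection. The highest were 0.985 for Ak3 with Rpl8 (Spearman 0.979), 0.983 for Ampd2 with Khdc4 (Spearman 0.972) and 0.957 for Ckb with Nub1 (Spearman 0.867). The values of the other 6 were 0.894 for Ak4 with Nr3c1 (Spearman 0.874), 0.857 for Ckm with Rbfox1 (0.825), 0.853 for Ampd3 with Rabgap1l (0.811), 0.850 for Ak1 with Lmcd1 (0.664), 0.845 for Ampd1 with Ciao2a (0.776) and 0.843 for Ckmt2 with Cdpf1 (0.874).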

How the data were processed

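C2C12 myotubes received 20 μM BAM15 or vehicle during 16 h, and their RNA was sequenced by 3′ QuantSeq in 6 libraries per condition. The authors aligned the reads and deposited raw counts of reads for each Ensembl gene. Per the labels the genome build was GRCm38 (mm10) and DESeq2 1.22.2 was used for the authors' analysis. The aligner's settings and the strand used for counting are not given in the sources used here. From the authors' normalized table only gene symbols were taken, and 2260 of 2293 missing symbols were filled from GENCODE M21. The deposited counts hold 11 further columns of samples not covered here, and these were not used.

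The counts were analysed with edgeR 4.0.16 under R 4.3.3. filterByExpr removed 2383 genes, TMM factors were 0.932 to 1.04, and a robust quasi-likelihood model with condition as its only term was fitted to all 12730 remaining genes, with Benjamini-Hochberg adjustment. A call is an adjusted p below 0.01. Standard errors were obtained as the absolute log2 fold change over the root of F. Ratios within families used counts plus 0.5, with a threshold of 0.05 on the adjusted exact permutation p. No library was a copy of another, since the chi-square per gene was 4.98 to 25.6 between vehicle libraries and 6.53 to 84.7 between BAM15 libraries.

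The 9 genes, the lists of related genes and the markers were chosen with earlier results of these data known. Named are all 9 genes, of each list up to 4 called genes with the largest change, and for each of the 9 the gene most correlated with it among genes with a mean of at least 50 normalized counts. Gatm, Ak6, Ak8, Adssl1, Adsl and Slc25a4, which did not pass, and Myf5, which did, were added after their values were seen. Some genes of the lists are not reported here. Alternatives were DESeq2 1.42.0, scaling by library size only, no filter, a minimum of 10 counts in each library, the library number as a block, libraries 1 to 3 or 4 to 6 only, each library left out, an adjusted p below 0.05 and the 3 thresholds of the study. The 19 alternatives given for a gene leave out the changed thresholds. The 13 given for a ratio are each library left out and no count added. Plots were made with matplotlib 3.10.9 under Python 3.11.15.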

Additional observations from a re-analysis of the deposited data

Results flagged for a closer look

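Vehicle library 4 held 5470 normalised counts of Ckm, the highest of the 6 vehicle libraries, and its gap to the next library was 0.748 of the whole range. It was the only 1 of 18 groups of 6 libraries that stood apart in this way, and chance marks about 1 in 20 groups. Without it the log2 fold change of Ckm was -0.16 (edgeR, adjusted p = 0.0138) in place of -0.17 (0.00540).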

How the results depend on the processing

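Of the 9 genes 7 were called, and 4 (3 lower, 1 higher) were called in libraries 1 to 3 alone and 2 with all 3 thresholds. Leaving out 1 library at a time gave 4 to 7, the 4 (3 lower, 1 higher) without vehicle library 4. DESeq2 called 7, no filter 7 and an adjusted p below 0.05 called 8. Scaling by library size only called 6, with Ampd1 lost (edgeR, adjusted p = 0.0106). At least 10 counts in every library left 5, with Ak3 (edgeR, adjusted p = 0.0115) and Ampd1 (0.0111) lost. Ckmt2, which was not among the 7, has no value there. Libraries 4 to 6 alone gave 5 (3 lower, Ckb, Ak3 and Ak4, and 2 higher, Ampd2 and Ampd3). Of all tested genes 5379 were called, 927 with all 3 thresholds, and of the 37 related genes 15, or 0 with all 3 thresholds. Over all genes, the fit to libraries 1 to 3 alone called 5730, that to 4 to 6 alone 4265 and DESeq2 5844. At least 10 counts in every library gave 4908 genes, no filter 5618 and an adjusted p below 0.05 gave 6884. When 1 library was left out, 4874 to 5509 genes were called. Whether the 9 genes were called more often than other genes was not tested. Ckb, Ak4 and Ampd3 passed at an adjusted p below 0.01 under all 19 alternatives, which do not include the 3 thresholds together. The difference in log2 Ak1/Ak3 ran from -0.016 to 0.049 when 1 library was left out. The cause of these changes was not tested. With a replicate block for the library number 6 of the 9 genes were called, Ckm being lost (adjusted p = 0.0145), and 5292 genes in all. Same-numbered libraries did not deviate together throughout (correlations of 0.173, 0.0203, 0.278, 0.138, -0.0689 and 0.261), and 2 of 6 correlated best with their own number, so the numbers were not taken as pairs. Depth limits Ckmt2, with at most 23 counts in a library.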
